A study of Mus musculus with 4 samples.

Results

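The proteasome genes were followed in mouse cardiac fibroblasts in which the nuclear receptor Nr4a3 had been knocked down during reprogramming toward induced cardiomyocytes. The members are the genes whose symbol starts with Psm, a letter from a to g and a digit, and 42 of the 16383 genes of the count table matched. They comprise 40 genes of proteasome subunits, activators, an inhibitor and assembly chaperones, plus Psme2b, a retrocopy of Psme2, and Psmc3ip, which shares the name pattern but encodes a meiotic recombination factor. RNA-seq read counts were compared between fibroblasts given the hairpin shNr4a3 (2 libraries) and fibroblasts given the non-targeting hairpin shNT (2 libraries). Both groups were wild-type primary cells from hearts of 3-month-old mice, both had received the MGT factors (Mef2c, Gata4 and Tbx5), and both were collected at reprogramming day 7. The sources used here give neither the number of hairpin sequences nor the delivery vectors. No label states whether the 2 libraries in each group derive from separate cultures or animals, so p-values measure only the spread between these libraries, which may be technical.

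The proteasome is the protease that degrades ubiquitin-tagged proteins. Its core particle is a barrel of alpha rings, which gate the entry, and beta rings, of which Psmb5, Psmb6 and Psmb7 carry the proteolytic sites. A regulatory particle of ATPase (Psmc) and non-ATPase (Psmd) subunits recognises and unfolds substrates. Under interferon, Psmb8, Psmb9 and a further inducible subunit take the places of Psmb5, Psmb6 and Psmb7 and form the immunoproteasome, and the activator subunits Psme1 and Psme2, which cap the core as a ring, are induced as well. Both are known for shaping the peptides shown on major histocompatibility complex (MHC) class I molecules.

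Totals were 30395159 and 30976450 counts in the shNr4a3 libraries and 28220440 and 30479301 in the shNT libraries, summed over the listed genes only, which lie on 16 chromosomes. Genes of chromosomes 7, 8, 9 and X and part of chromosome 6 were not analysed here, so the members on them, such as Psmb10 and Psmc4, have no value. Values are read counts scaled to library size (CPM) with TMM factors, in which 1 count was worth 0.0326 to 0.035 CPM. The hairpin's target Nr4a3 had 18 and 32 counts in shNr4a3 and 356 and 353 counts in shNT. All 10 markers of cardiac fibroblasts were detected in every library, with a summed level, carried by Vim and the collagens, of 7995 and 7342 CPM in shNr4a3 and 11218 and 11170 CPM in shNT. Differences were tested with edgeR's quasi-likelihood test over 10736 genes that passed a filter on low counts, with Benjamini-Hochberg adjustment over all of them and a threshold of 0.05.

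The inducible subunits fell and the subunits they replace did not pass the test. Psmb8, the inducible counterpart of Psmb5, fell to about 5.74% of its shNT level. Psmb9, the inducible counterpart of Psmb6, and the activator subunits Psme1 and Psme2 fell to 43.8%, 25.4% and 38.0%. Of the 37 other members tested, 4 rose, 15 fell and 18 missed the threshold. The count of 4 was unstable, with 1 called higher without shNT replicate 2 and 2 in DESeq2. Over all members, 23 of 41 tested were called (56.1%), against 60.2% of all genes tested. Of these members, 19 fell and 4 rose, against 29.4% and 30.7% of all genes. A fall of more than 1 on the log2 scale was called for 7 of 41 members and for 13.4% of all genes, and all 4 inducible genes are among the 7. The others are Psma6, the retrocopy Psme2b and the low-count gene Psma8. Psma8, also among the 19 that fell, passed the filter on low counts only through the shNT libraries.

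Psmb8 (mm10 chromosome 17, 34197721 to 34201454, plus strand, protein coding) had 218 and 142 counts in shNr4a3 against 2716 and 3398 counts in shNT. In CPM these were 7.22 and 4.62 in shNr4a3 and 95.1 and 111 in shNT. Every shNr4a3 library lay far below both shNT libraries. The means were 5.92 ± 1.84 CPM in shNr4a3 and 103 ± 11.4 CPM in shNT (SD, n = 2 each), giving a log2 fold change of -4.12 (with SE 0.183 and adjusted p = 2.09e-07 in edgeR). Psmb8 ranked 59 of 10736 tested genes when ordered from the lowest log2 fold change, and no exon of another listed gene overlaps its exons. In bulk RNA, fewer cells that express a gene and less RNA per cell cannot be told apart.

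Psmb9 (chromosome 17, 34181987 to 34187764, minus strand) had 95 and 83 counts in shNr4a3 and 155 and 242 counts in shNT, or 2.92 ± 0.313 CPM and 6.67 ± 1.76 CPM (SD, n = 2 each). The groups did not overlap, but the shNT libraries differed more from each other than the shNr4a3 libraries did. The log2 fold change was -1.19 (with SE 0.257 and adjusted p = 0.00315 in edgeR), and it was -0.89 without shNT replicate 2. Psmb9 exons overlap those of Tap1, the neighbouring gene for the class I peptide transporter on the opposite strand. The sources used here do not give the strand setting of the counting, so reads of the overlap cannot be assigned to either gene. Tap1 itself had 51.5 and 37.4 CPM in shNr4a3 and 55.8 and 76.5 CPM in shNT, a log2 fold change of -0.57 (with SE 0.175 and adjusted p = 0.0184 in edgeR). Tap1 missed the threshold when shNT replicate 2 was left out (-0.33, adjusted p = 0.155).

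The activator genes lie close together on chromosome 14. Psme1 (55578123 to 55581529, plus strand) had 2438 and 2144 counts in shNr4a3 and 8076 and 9464 counts in shNT. Its mean was 75.3 ± 7.72 CPM in shNr4a3 and 296 ± 19 CPM in shNT (SD, n = 2 each), giving a log2 fold change of -1.98 (with SE 0.0968 and adjusted p = 3.29e-07 in edgeR). Both shNr4a3 libraries lay well below both shNT libraries. Psme2 (55587441 to 55591113, minus strand) had 2083 and 1914 counts in shNr4a3 and 4796 and 5430 counts in shNT. Its mean was 65.7 ± 4.71 CPM in shNr4a3 and 173 ± 6.87 CPM in shNT (SD, n = 2 each), giving a log2 fold change of -1.40 (with SE 0.0864 and adjusted p = 1.39e-06 in edgeR). The products of Psme1 and Psme2 assemble into a single mixed ring, and the Psme1 to Psme2 count ratio was 1.17 and 1.12 in shNr4a3 and 1.68 and 1.74 in shNT, lower in both shNr4a3 libraries. Psme1 exons overlap those of Emc9 on the opposite strand, and Emc9 held only 276 to 382 counts per library. The Emc9 groups overlapped.

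Psme2b, the retrocopy on chromosome 11 (48945354 to 48946190), fell as well, with 588 and 691 counts in shNr4a3 and 1264 and 1870 counts in shNT. Its log2 fold change was -1.33 (with SE 0.157 and adjusted p = 7.86e-05 in edgeR). The best alignment of its transcript with a Psme2 transcript had 99.4% identity over 794 bases with 5 mismatches. Reads of the 2 genes can therefore be exchanged, which leaves both values uncertain. Psme2b had 0.282 and 0.361 counts per Psme2 count in shNr4a3 and 0.264 and 0.344 in shNT, so the groups overlapped in this ratio. Psme2b also overlaps 9930111J21Rik1 on the same strand.

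**Figure D1:**
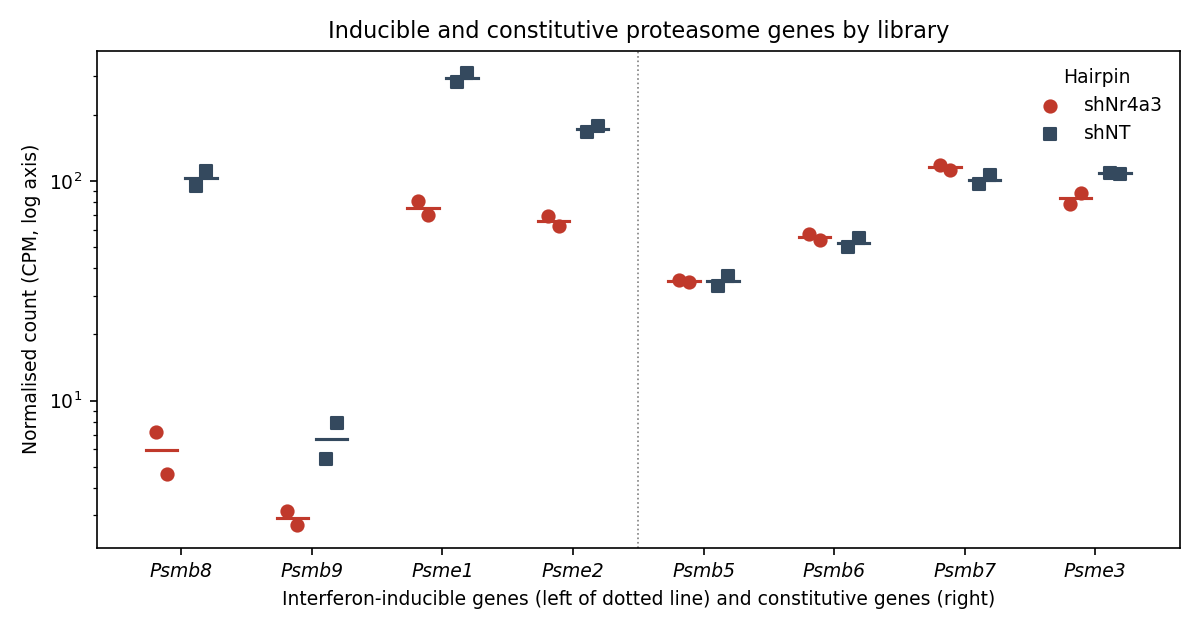
Normalised counts (CPM, log axis) of the inducible genes Psmb8, Psmb9, Psme1 and Psme2 and of the constitutive genes Psmb5, Psmb6, Psmb7 and Psme3 in each library (points) with the group mean (bars), shNr4a3 left of shNT. The groups are apart for all 4 inducible genes, with Psmb8 at 4.62 to 7.22 CPM in shNr4a3 and 95.1 to 111 CPM in shNT, and overlap for Psmb5 and Psmb6.

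Macrophages and lymphocytes express the immunoproteasome strongly, and their markers were followed in the same libraries. Of 16 macrophage markers tested, 8 fell, 0 rose and 8 missed the threshold. Beside this and the other marker lists below, 29.4% of all genes tested fell and 30.7% rose. Thus 60.2% of all genes were called, against 50% of the macrophage markers. The 8 that fell are Ptprc, Adgre1, C1qa, C1qc, Cd68, Ctss, Mpeg1 and Mrc1. Aif1 had 10 and 8 counts in shNr4a3 and 28 and 14 in shNT, and Fcgr1 8 and 4 against 22 and 16. Both reached the level of the low-count filter in both libraries only in shNT. They missed the threshold but enter the median, so that median was not independent of their difference. The median log2 fold change over the 16 was -1.01, with a range from -1.82 (C1qa) to 0.19 (Csf1r, the only marker above 0), against a median of 0.02 over all genes tested. Their summed level was 224 and 225 CPM in shNr4a3 and 357 and 281 CPM in shNT, of which Lyz2 alone, which did not pass, made up 137 and 132 CPM in shNr4a3 and 169 and 134 CPM in shNT. Cd68, a macrophage lysosomal protein, had 7.39 and 6.51 CPM in shNr4a3 and 22.7 and 19.9 CPM in shNT. Csf1r, the receptor of the macrophage growth factor, had 7.68 and 7.36 CPM in shNr4a3 and 7.35 and 5.86 CPM in shNT. No macrophage marker was at 0 in all libraries. The 4 listed lymphocyte markers summed to 0.0994 and 0.261 CPM in shNr4a3 and 0.91 and 0.753 CPM in shNT, with Ms4a1 at 0 counts throughout. Most of the shNT sum was Lck, with 24 and 21 counts in shNT and 2 and 3 counts in shNr4a3. Only Lck was tested, and it passed the filter only through the shNT libraries. Of 10 cardiac fibroblast markers, 7 fell and 1 rose. Tcf21, a transcription factor of cardiac fibroblasts, had 9.21 and 7.56 CPM in shNr4a3 and 81.6 and 89.1 CPM in shNT (log2 fold change -3.35 with SE 0.124, adjusted p = 9.64e-08 in edgeR). Pdgfra, a fibroblast receptor, had 66.7 and 74.9 CPM in shNr4a3 and 355 and 321 CPM in shNT (log2 fold change -2.26 with SE 0.0938, adjusted p = 1.52e-07 in edgeR). Of 8 endothelial markers, 2 rose (Emcn and Kdr) and 3 fell (Tek, Egfl7 and Cldn5), with Cldn5, at 6 and 10 counts in shNr4a3 and 10 and 72 counts in shNT, passing the filter only through the shNT libraries. The part of these shifts in the fall of the inducible genes was not tested.

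Sequences around the RefSeq starts of the inducible genes are shown because these genes fell together. The sequence of Psmb5, whose level did not pass the test, stands beside them. Each window runs from 250 bases before the RefSeq start to 50 bases after it (GRCm38.p6, the same build as mm10), 5′ to 3′ on the gene's strand. Capitals mark matches, on either strand, to 4 motifs searched: GAAA and GAAA with any 2 bases between them (core of the interferon-stimulated response element), TTCNNNGAA (core of the gamma-activated site), TGANNNNGC (core of the antioxidant response element) and CCAAT (the NF-Y box). No matches overlap in these windows. The windows of Psmb8, Psmb9 and Psme1 lie wholly inside the gene coordinates given above (from GENCODE), which begin further upstream. For these genes the sequence is therefore not upstream of the gene by those coordinates.
Psmb8 (chr17:34197945-34198244, plus strand): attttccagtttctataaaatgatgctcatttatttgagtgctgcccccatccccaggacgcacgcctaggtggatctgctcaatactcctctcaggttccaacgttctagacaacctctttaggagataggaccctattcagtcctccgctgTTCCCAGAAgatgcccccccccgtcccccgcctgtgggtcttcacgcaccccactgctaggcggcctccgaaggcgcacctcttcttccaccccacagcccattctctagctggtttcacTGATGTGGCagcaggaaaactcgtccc
Psmb9 (chr17:34187281-34187580, minus strand): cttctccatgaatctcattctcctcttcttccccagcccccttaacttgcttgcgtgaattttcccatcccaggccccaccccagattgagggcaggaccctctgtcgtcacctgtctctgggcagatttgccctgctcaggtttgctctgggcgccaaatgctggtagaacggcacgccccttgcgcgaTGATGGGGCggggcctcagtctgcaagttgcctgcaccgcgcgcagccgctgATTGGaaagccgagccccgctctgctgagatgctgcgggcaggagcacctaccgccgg
Psme1 (chr14:55578244-55578543, plus strand): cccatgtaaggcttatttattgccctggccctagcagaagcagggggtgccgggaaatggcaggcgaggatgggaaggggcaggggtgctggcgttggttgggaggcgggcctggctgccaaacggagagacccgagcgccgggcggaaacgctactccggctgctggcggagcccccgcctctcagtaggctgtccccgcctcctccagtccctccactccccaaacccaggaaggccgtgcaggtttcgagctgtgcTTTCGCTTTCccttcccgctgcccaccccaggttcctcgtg
Psme2 (chr14:55591052-55591351, minus strand): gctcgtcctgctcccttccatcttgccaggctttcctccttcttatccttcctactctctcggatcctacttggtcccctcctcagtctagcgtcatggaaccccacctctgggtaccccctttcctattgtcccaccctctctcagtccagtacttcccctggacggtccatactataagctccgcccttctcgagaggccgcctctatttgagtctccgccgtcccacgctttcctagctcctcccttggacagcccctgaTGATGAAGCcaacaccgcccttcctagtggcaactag
Psmb5 (chr14:54617946-54618245, minus strand): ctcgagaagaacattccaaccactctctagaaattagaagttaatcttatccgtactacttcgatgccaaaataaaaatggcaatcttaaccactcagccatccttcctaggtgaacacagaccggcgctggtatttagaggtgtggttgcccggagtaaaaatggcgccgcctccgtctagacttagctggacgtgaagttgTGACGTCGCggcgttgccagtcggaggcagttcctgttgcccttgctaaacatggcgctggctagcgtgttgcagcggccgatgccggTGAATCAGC

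Positions are counted from 0 at the RefSeq start. The Psmb8 window held a gamma-activated site core at -97 to -89 and an antioxidant response element core at 23 to 31. The Psme1 window held an interferon-stimulated response element core at 9 to 18, matched on the other strand. The Psmb9 window held an antioxidant response element core at -60 to -52 and an NF-Y box on the other strand at -8 to -4. Psme2, of whose 2 windows the upstream one is printed, held an antioxidant response element core at 13 to 21. Psmb5 held antioxidant response element cores at -47 to -39 and 41 to 49. Over 27025 promoter windows of the same length, 1 per gene, 3.49% held the interferon-stimulated response element core, 8.47% the gamma-activated site core, 41.4% the antioxidant response element core and 37.9% the NF-Y box. Among 35 members with a window that was read, 5 held the interferon-stimulated response element core and 3 the gamma-activated site core. The antioxidant response element core was held by 20 and the NF-Y box by 13. The interferon-stimulated response element core was in Psme1, Psmb3, Psmd4, Psmg4 and Psmd9, of which only Psme1 is among the inducible genes. The gamma-activated site core was in Psmb8, Psmd2 and Psmg1, of which only Psmb8 is. A match describes the letters only and does not show that a factor binds.

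The constitutive catalytic subunits served as the point of comparison within each library. Psmb5 (chromosome 14), the chymotrypsin-like subunit, had 35.2 and 34.6 CPM in shNr4a3 and 33.4 and 36.9 CPM in shNT. Its groups overlapped, with a log2 fold change of -0.01 (with SE 0.1 and adjusted p = 0.94 in edgeR). Psmb6 (chromosome 11), the caspase-like subunit, had 57.6 and 53.7 CPM in shNr4a3 and 50.1 and 54.8 CPM in shNT, and also overlapped (log2 fold change 0.08 with SE 0.0944, adjusted p = 0.472 in edgeR). Psmb7 (chromosome 2), the trypsin-like subunit, had 118 and 113 CPM in shNr4a3 and 96.6 and 106 CPM in shNT. The Psmb7 groups did not overlap, but the difference did not pass (log2 fold change 0.19 with SE 0.0842, adjusted p = 0.0834 in edgeR), and it passed without shNr4a3 replicate 2 (adjusted p = 0.0494). Psmb7 exons overlap those of Nek6 on the opposite strand, and Nek6 was called higher (log2 fold change 0.37 with SE 0.0876, adjusted p = 0.00553 in edgeR).

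Within a library, Psmb8 had 0.205 and 0.134 counts per Psmb5 count in shNr4a3 and 2.85 and 3.02 in shNT. The mean ratio was 0.169 ± 0.0503 in shNr4a3 and 2.93 ± 0.119 in shNT (SD, n = 2 each), 17.3-fold apart. The ratio was lower in both shNr4a3 libraries than in either shNT library. Psmb9 had 0.0547 and 0.0504 counts per Psmb6 count in shNr4a3 and 0.108 and 0.144 in shNT, with means of 0.0525 ± 0.00304 and 0.126 ± 0.0256 (SD, n = 2 each). These ratios do not depend on how libraries are scaled. With 2 libraries against 2, an exact two-sided permutation test cannot go below p = 0.333, so no test is given for them.

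Levels of different genes were compared only per kilobase of the deposited gene length, which covers the exons of all annotated transcripts. On that scale Psmb8 had 2.16 ± 0.671 CPM per kilobase in shNr4a3 and 37.7 ± 4.15 in shNT, while Psmb5 had 40.1 ± 0.53 in shNr4a3 and 40.3 ± 2.81 in shNT (SD, n = 2 each). On this scale the shNT level of Psmb8 was within the spread of that of Psmb5. That match depends on the deposited lengths, 2736 bases for Psmb8 and 871 for Psmb5. In counts, the mean Psmb8 to Psmb5 ratio in shNT was 2.93. Psmb9 had 0.799 ± 0.0857 CPM per kilobase in shNr4a3 and 1.82 ± 0.481 in shNT, far below Psmb6 with 29.7 ± 1.47 and 28 ± 1.77. Psme1 and Psme2 were at 34.1 ± 3.5 and 37.2 ± 2.67 CPM per kilobase in shNr4a3 and at 134 ± 8.59 and 98 ± 3.89 in shNT. Psme3, which forms a separate nuclear activator ring, was at 28.3 ± 2.24 CPM per kilobase in shNr4a3 and 36.7 ± 0.271 in shNT.

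**Figure D2:**
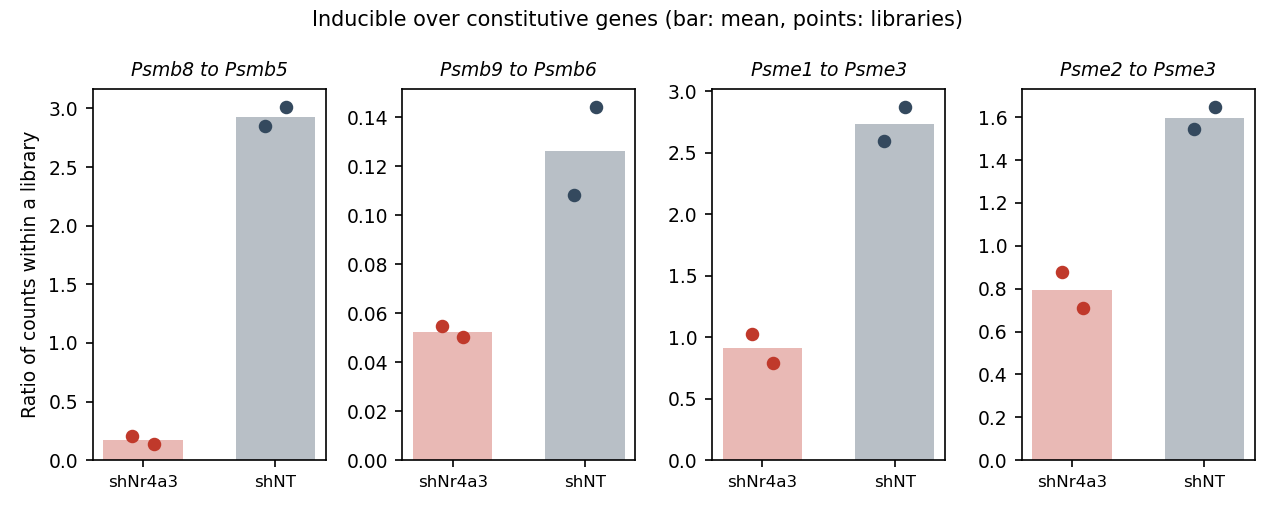
Ratio of the counts of an inducible gene to those of a constitutive gene in each library (points) and the group mean (bars from 0), shNr4a3 left of shNT, for 4 pairs with separate axes. All 4 ratios are lower in both shNr4a3 libraries, and the Psmb8 to Psmb5 ratio averages 0.169 in shNr4a3 and 2.93 in shNT.

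The alpha ring, which gates the core, was lower in part. Of 6 alpha genes tested, 4 fell, 0 rose and 2 missed the threshold. The 4 include Psma8, which passed the low-count filter only through the shNT libraries. Of the 5 constitutive alpha genes, 3 fell, a called share of 60%. Of all genes tested, 60.2% were called and 29.4% fell. Psma6 (chromosome 12) had 1268 and 977 counts in shNr4a3 and 2563 and 2599 counts in shNT, or 36.9 ± 7.2 CPM and 87.4 ± 3.34 CPM (SD, n = 2 each). Its log2 fold change of -1.24 (with SE 0.128 and adjusted p = 3.25e-05 in edgeR) was as low as that of the inducible Psmb9, so the inducible and the constitutive genes did not separate fully by size of change. Psma2 and Psma7 fell, with log2 fold changes of -0.66 and -0.47 (edgeR adjusted p = 0.0013 and 8.64e-04). Psma5 and Psma3 had log2 fold changes of -0.19 and -0.08 and did not pass (edgeR adjusted p = 0.161 and 0.456), though Psma5 passed without shNr4a3 replicate 1 (adjusted p = 0.00726).

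Psma8, the germ cell-specific counterpart of Psma7, was counted at a low level. It had 11 and 8 counts in shNr4a3 and 56 and 90 counts in shNT, a log2 fold change of -2.96 (with SE 0.485 and adjusted p = 6.28e-04 in edgeR). It passed the filter on low counts only through the shNT libraries, so its inclusion among the tested genes was not independent of its difference. Psmb11, the thymus-specific beta subunit, had 4 and 2 counts in shNr4a3 and 1 and 6 counts in shNT and did not pass the filter. It is the 1 member without a test.

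The constitutive beta ring went both ways. Of 7 genes, 1 rose, 1 fell and 5 missed the threshold, and the median log2 fold change was 0.08. The called share was 28.6%, against 60.2% of all genes tested. Psmb1, a structural beta subunit, had 67 and 60.6 CPM in shNr4a3 and 50.4 and 46.3 CPM in shNT (log2 fold change 0.40 with SE 0.0969, adjusted p = 0.00584 in edgeR), a call lost without shNT replicate 2 (adjusted p = 0.0774). Psmb3, another structural subunit, had 22.9 and 20.8 CPM in shNr4a3 and 31.4 and 34.2 CPM in shNT (log2 fold change -0.59 with SE 0.109, adjusted p = 0.00133 in edgeR). Psmb2 and Psmb4 had log2 fold changes of -0.32 and 0.11 and did not pass. Psmb2 passed without composition correction (adjusted p = 0.0471) and without shNr4a3 replicate 1 (0.0487), and Psmb4 without shNr4a3 replicate 2 (0.0412). Summed over the 12 constitutive core genes, the level was 982 and 869 CPM in shNr4a3 and 1066 and 1044 CPM in shNT. That is a ratio of 0.877, against 0.259 for the sum of the 4 inducible genes, which was 160 and 139 CPM in shNr4a3 and 551 and 606 CPM in shNT.

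The ATPase base, the ring of motor subunits that unfolds substrates, had small changes. Of 5 genes tested, 3 fell, 0 rose and 2 missed the threshold, with log2 fold changes between -0.41 and 0.20. The called share of 60% was near the 60.2% of all genes tested, of which 29.4% fell. Psmc2 had 122 and 112 CPM in shNr4a3 and 156 and 154 CPM in shNT (log2 fold change -0.41 with SE 0.0796, adjusted p = 0.00183 in edgeR). Psmc1 and Psmc6 fell, with log2 fold changes of -0.23 and -0.21. Both calls were lost without shNT replicate 1 and without shNT replicate 2, with adjusted p from 0.135 to 0.2, and that of Psmc6 also without shNr4a3 replicate 2 (0.0811). Psmc3 had 942 and 861 CPM in shNr4a3 and 792 and 781 CPM in shNT and narrowly missed the threshold (log2 fold change 0.20 with SE 0.0777, adjusted p = 0.0535 in edgeR). It passed in limma-voom (adjusted p = 0.0385), with the replicate block (0.031) and without shNr4a3 replicate 2 (0.00527). Its exons overlap those of Slc39a13 on the opposite strand, which rose 4.22-fold in the same libraries. Psmc5 had a log2 fold change of 0.05 and did not pass.

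Among the non-ATPase subunits of the lid and base, 4 of 8 fell, 1 rose and 3 missed the threshold. The called share of 62.5% was near the 60.2% of all genes tested, of which 29.4% fell. Psmd2, a large scaffold that binds ubiquitin receptors, had 601 and 624 CPM in shNr4a3 and 963 and 945 CPM in shNT. Its log2 fold change was -0.64 (with SE 0.073 and adjusted p = 6.39e-05 in edgeR). Psmd11 and Psmd1, the other large scaffold, fell with log2 fold changes of -0.43 and -0.36. Psmd1 exons overlap those of Gm21972 on the same strand, which held 3733 to 4229 counts per library and was not called. They also overlap those of Htr2b on the opposite strand, which was called higher (log2 fold change 2.66). Psmd14, the deubiquitinase that removes ubiquitin from substrates, had a log2 fold change of -0.37, and this call was lost without shNT replicate 1 (adjusted p = 0.0522). Psmd4, Psmd6 and Psmd12 had log2 fold changes of -0.16, 0.07 and -0.17 and did not pass, though Psmd4 and Psmd12 passed without shNr4a3 replicate 1 (adjusted p = 0.0176 and 0.0294). Psmd3, a lid subunit, rose, with 142 and 141 CPM in shNr4a3 and 106 and 103 CPM in shNT (log2 fold change 0.44 with SE 0.0758, adjusted p = 8.50e-04 in edgeR). Over the 13 genes of the regulatory particle, the summed level was 4036 and 3824 CPM in shNr4a3 and 4494 and 4428 CPM in shNT, a ratio of 0.881.

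Of the activators outside the inducible pair, Psme3 fell and Psme4 did not pass. Psme3 had 78.7 and 88 CPM in shNr4a3 and 109 and 108 CPM in shNT (log2 fold change -0.38 with SE 0.0864, adjusted p = 0.00433 in edgeR). Psme4, a large single-chain activator, had 92.4 and 110 CPM in shNr4a3 and 83.7 and 92.9 CPM in shNT, and its groups overlapped (log2 fold change 0.20 with SE 0.104, adjusted p = 0.13 in edgeR). Psmf1, an inhibitor of the core particle, had 15 and 15 CPM in shNr4a3 and 11.2 and 12.2 CPM in shNT. It was called higher (log2 fold change 0.36 with SE 0.131, adjusted p = 0.0406 in edgeR), but lost the call in 7 of 10 alternative fits. These were the 4 that left out 1 library (adjusted p from 0.0759 to 0.219), DESeq2 (0.122), no composition correction (0.0515) and no filter on low counts (0.0509). The Psme1 to Psme3 count ratio was 1.03 and 0.793 in shNr4a3 and 2.6 and 2.87 in shNT.

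Assembly chaperones bind the subunits while the particle is built and leave it afterwards. Of 6 tested, 1 rose, 1 fell and 4 missed the threshold, a called share of 33.3% against 60.2% of all genes tested. Psmd5, a chaperone of the base, had 82.1 and 80.6 CPM in shNr4a3 and 139 and 125 CPM in shNT (log2 fold change -0.70 with SE 0.0848, adjusted p = 9.89e-05 in edgeR). Psmg1, a chaperone of the alpha ring, had 31.6 and 31.6 CPM in shNr4a3 and 27.2 and 23.5 CPM in shNT (log2 fold change 0.32 with SE 0.111, adjusted p = 0.0317 in edgeR). That call was lost without shNT replicate 2 (adjusted p = 0.267), without shNr4a3 replicate 2 (0.0516) and in DESeq2 (0.0704). Psmg2, Psmg3, Psmg4 and Psmd9 had log2 fold changes of 0.14, 0.26, -0.33 and 0.22, none of which passed. Psmc3ip, the gene with only the name in common, had a log2 fold change of -0.20 and did not pass.

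**Figure D3:**
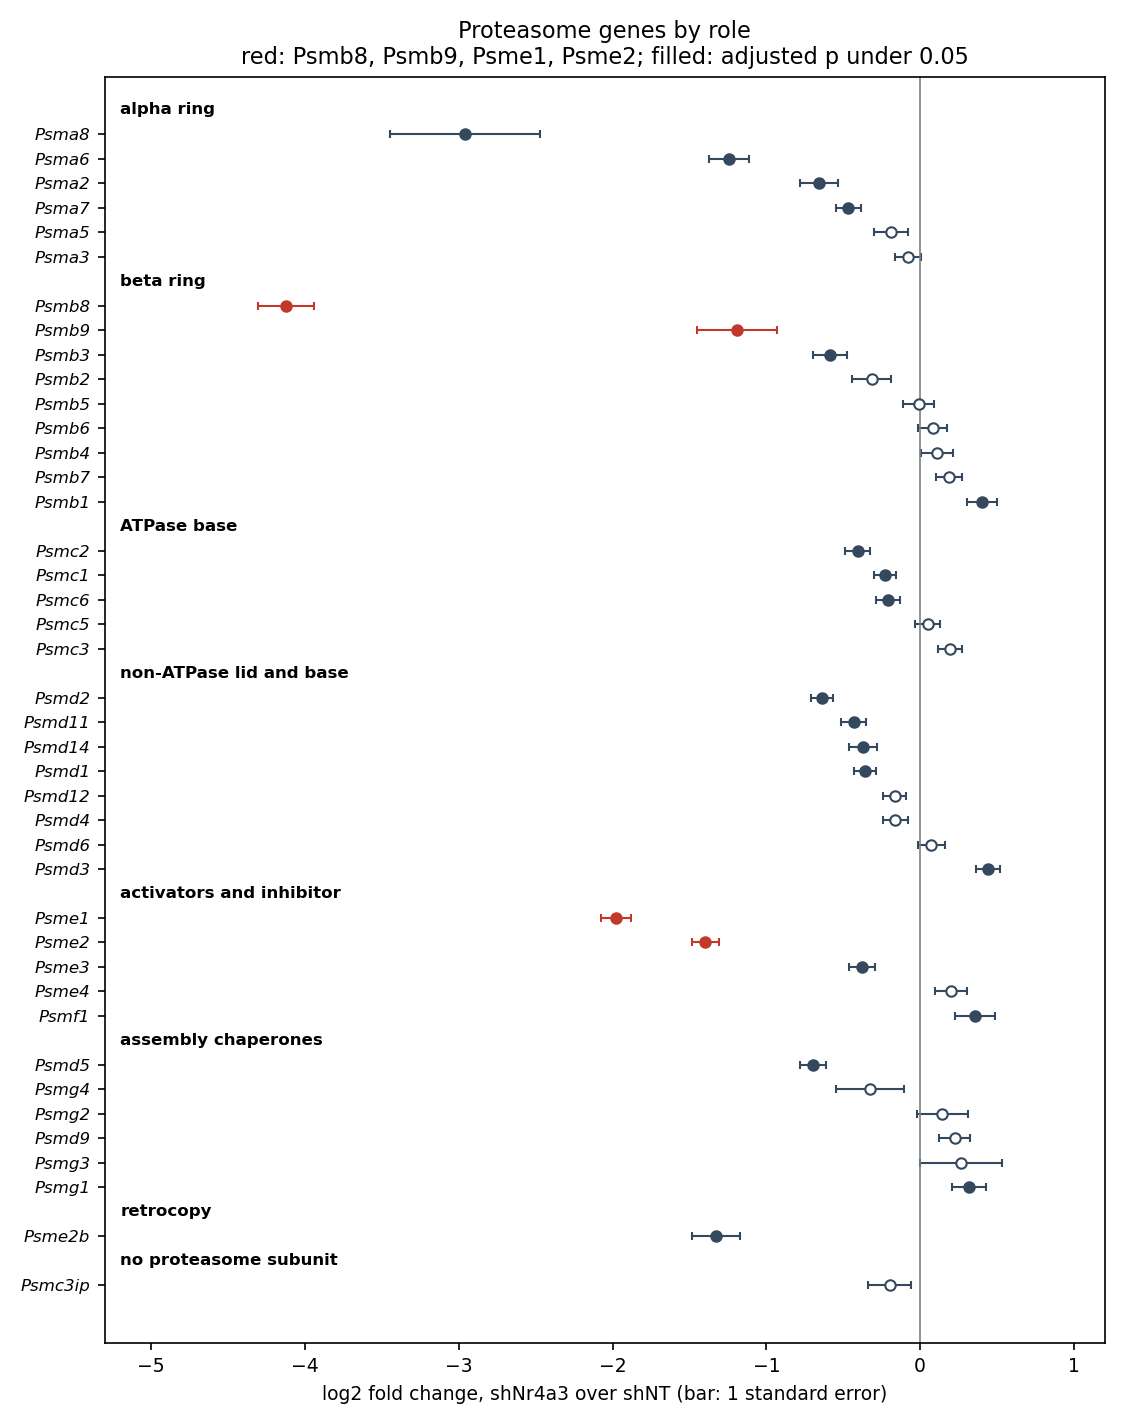
Log2 fold change (shNr4a3 over shNT) of the 41 tested members with its standard error, by role, with the inducible genes in red and filled points for an edgeR adjusted p under 0.05. Psmb8 stands at -4.12 and Psme1 at -1.98, Psma8 at -2.96 rests on low counts, and 17 of 34 constitutive genes were called, 13 of them lower.

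The groups did not overlap in CPM for 32 of 41 members tested (78.0%), against 81.0% of all genes tested. Without Psme2b and Psmc3ip the called members numbered 22 of 39, with 4 higher and 18 lower. The median log2 fold change was -0.21 over the 41 members and -0.16 over the 34 constitutive genes, against 0.02 over all genes tested. For the 4 inducible genes it was -1.69. In level per kilobase the members spread widely, and in shNT the highest was Psmc1 at 458 ± 7.86 CPM per kilobase and the lowest of the tested members Psma8 at 1.45 ± 0.411 (SD, n = 2 each).

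Genes that act with the proteasome but lie outside the name pattern went both ways. Of 17 partners tested (assembly factors, ubiquitin receptors and deubiquitinases), 6 fell, 3 rose and 8 missed the threshold. Their called share was 52.9%, against 60.2% of all genes tested, and their median log2 fold change was -0.01. Without shNT replicate 1, only 1 partner was called higher. Pomp, the maturation factor of the core, had 62.5 and 52.3 CPM in shNr4a3 and 80.1 and 84.6 CPM in shNT (log2 fold change -0.52 with SE 0.103, adjusted p = 0.00195 in edgeR). The shuttle receptor Rad23b and the proteasome-bound ubiquitin ligase Ube3c fell (log2 fold changes -0.62 and -0.84), while Zfand5, a proteasome-binding zinc finger protein, rose (0.63). Of 13 ubiquitin and p97 genes tested, 61.5% were called, near the 60.2% of all genes tested. Of these 13, 5 rose, 3 fell and 5 missed the threshold, with Nsfl1c, a p97 cofactor, among those that rose (log2 fold change 0.91). Without shNT replicate 2, 3 of these genes were called higher.

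Transcription factors and other regulators of proteasome genes were called in 10 of 11 cases, against 60.2% of all genes tested. Of these regulators 6 were lower and 4 higher, against 29.4% and 30.7% of all genes. Without shNT replicate 2, only 2 were called higher. Nfe2l1, which raises the genes of constitutive subunits when proteasome activity is short, had 558 and 562 CPM in shNr4a3 and 1198 and 1234 CPM in shNT. Its libraries agreed closely within each group (log2 fold change -1.12 with SE 0.0729, adjusted p = 1.86e-06 in edgeR). Nfe2l2, the related factor of the antioxidant response, and Stat3 also fell (log2 fold changes -0.78 and -1.64). Nfe2l3 had only 2 and 10 counts in shNr4a3 and 43 and 30 counts in shNT (log2 fold change -2.63), and entered the test through the shNT libraries. Its call did not hold when shNr4a3 replicate 1 was left out (-1.91, adjusted p = 0.0648) or when shNT replicate 1 was (-2.32, adjusted p = 0.0681), and without shNr4a3 replicate 2 it was at -4.15. Ngly1, the glycanase that Nfe2l1 needs for its activation, was called higher (log2 fold change 0.39), and lost the call in DESeq2 (adjusted p = 0.0542), without shNr4a3 replicate 2 (0.0634) and without shNT replicate 2 (0.183). Ddi2, the protease that cleaves Nfe2l1, fell (log2 fold change -0.44).

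Genes of class I antigen processing and interferon signalling were mostly lower in the same libraries. Of 9 processing genes tested, 7 fell, 1 rose and 1 missed the threshold, while 29.4% of all genes tested fell and 30.7% rose. Pdia3 rose (log2 fold change 0.49, adjusted p = 0.00154 in edgeR), and Tapbp missed the threshold (log2 fold change 0.11). Tap2, a subunit of the peptide transporter whose gene lies on the same chromosome as Psmb8 and Psmb9, had 20.2 and 17.3 CPM in shNr4a3 and 62.2 and 69.3 CPM in shNT (log2 fold change -1.81 with SE 0.115, adjusted p = 1.63e-06 in edgeR). The class I heavy chain gene H2-K1 fell by 3.90 on the log2 scale, with the doubt that near-identical H2 genes can share reads. Of 11 interferon signalling genes tested, 8 fell, 1 rose and 2 missed the threshold, beside the same shares of all genes. Irf1, a transcription factor that induces Psmb9 and Tap1, had 23.5 and 19.4 CPM in shNr4a3 and 45.3 and 54.3 CPM in shNT (log2 fold change -1.21 with SE 0.132, adjusted p = 4.80e-05 in edgeR). Ifngr2, a chain of the interferon gamma receptor, rose by 0.89 on the log2 scale.

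**Figure D4:**
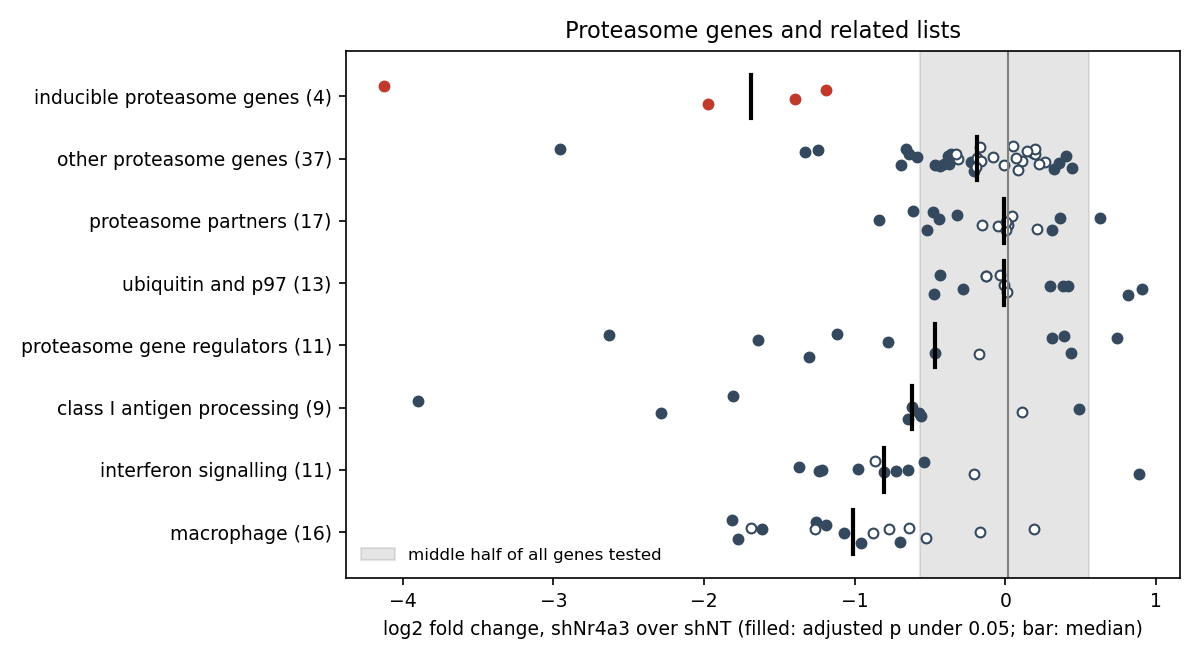
Log2 fold changes (shNr4a3 over shNT) of tested genes in 8 lists, with filled points for an edgeR adjusted p under 0.05, black bars for list medians and a grey band for the middle range (25 to 75 percentiles) of all genes tested. The inducible proteasome genes have a median of -1.69, the other proteasome genes of -0.19 and the proteasome partners of -0.01.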

How the data were processed

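The deposited table holds the authors' raw read counts, with 1 row per gene, 1 column per library and no normalization. Per the submitters' processing notes, the tools were Trimmomatic 0.36, SAMtools and featureCounts of Subread 1.5.1, with build mm10. The sources used here do not give the aligner, strand setting or annotation release. Per the labels' protocols, RNA was depleted of ribosomal RNA and made into stranded libraries, while the molecule label reads polyA RNA.

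Counts were tested with edgeR 4.0.16 (R 4.3.3): TMM scaling, filterByExpr (minimum count 10), quasi-likelihood F test, hairpin as the only term, Benjamini-Hochberg adjustment over 10736 genes. The standard error is the log2 fold change divided by the root of F. The pipeline was run on simulated counts in which few genes changed, equally in both directions, at a single common dispersion. In these data 60.2% of the genes tested were called, so the simulation is no check of the error rate here. In the chi-square statistic per degree of freedom, the libraries differed beyond counting noise (22.1 for shNr4a3, 10.6 for shNT), and all 4 were kept. DESeq2 1.42.0 and limma-voom (limma 3.58.1) were alternatives, as were other scalings, no filter, the replicate number as a block and each library left out.

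All 42 members matched GENCODE M21 (GRCm38) by symbol and chromosome, which gave coordinates and exon overlaps, because long exon lists in the deposited table stop at 255 characters. Exons of 8 members overlap another listed gene. Transcripts were aligned with BLAST+ 2.17.0. Promoter windows are from RefSeq (GRCm38.p6), and windows on chromosome 18 were not used.

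The named members are the inducible genes, their counterparts, the highest and lowest of each role class, and called genes beyond 0.5 on the log2 scale. From the other lists, the genes of largest change and a few fixed ones were named, and some of these are not reported here. Further members, Ddi2, Ngly1 and the cell type markers were named after their values were seen. Members and lists were chosen with earlier results of these data known.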

Additional observations from a re-analysis of the deposited data

How the results depend on the processing

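The falls of Psmb8, Psmb9, Psme1 and Psme2 kept their direction and stayed past the threshold in all 10 alternative fits. Without 1 library, the log2 fold change ranged from -4.47 to -3.85 for Psmb8, -1.45 to -0.89 for Psmb9, -2.08 to -1.89 for Psme1 and -1.47 to -1.34 for Psme2. The call was the same in all 10 fits for 27 of 41 members, and no called member changed sign. The count of members called lower was 19, and 15 to 23 in the alternatives. The count called higher was 4, with 2 under DESeq2, and 1 to 5 when 1 library was left out. It was 1 (Psmd3) without shNT replicate 2, and the cause was not tested. In those fits the lone library is assumed to vary like the other group. Leaving out 1 library from a count ratio leaves the value of the other, so this is no check of the ratios. From counts summed over the group, the Psmb8 to Psmb5 ratio was 0.169 in shNr4a3 and 2.94 in shNT, and the Psmb9 to Psmb6 ratio was 0.0526 in shNr4a3 and 0.128 in shNT. Without the 8 members that overlap another gene, 4 were called higher and 15 lower. The replicate block, with replicate number as a term, gave 5 members higher and 19 lower. Deviations of same-numbered libraries correlated at 0.0374, so the numbers are not taken to pair the libraries. The precision of low-count members such as Psma8 and Psmb11 is limited by depth, since 3 counts corresponded to 0.0977 to 0.105 CPM.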
